A study of Mus musculus with 8 samples.

Results

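The genes described here are those of respiratory complex I, taken as every non-control probe whose gene name on the array starts with Nduf. The rule found 60 of the 39429 probes of the array, and these stand for 45 genes. Of these genes 38 encode subunits (50 probes) and 7 encode assembly factors with Ndufaf names (10 probes). All 45 genes had a probe well above background in all 8 mice, so none was lost to the filter on dim probes, which kept 58 of the 60 probes and 18250 genes in all. Both dim probes belong to Ndufaf5, which was read from another probe.

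The tissue was the left ventricle (septum, free wall and apex, homogenised together) of male C57Bl/6j mice, an inbred strain, killed at 16 weeks of age. From 8 weeks of age 4 mice ate normal salt chow with 0.4% sodium and 4 mice ate low salt chow with 0.05% sodium, for 8 weeks. RNA of each mouse was labelled with Cy3 (mice 1 and 3 of each diet) or Cy5 (mice 2 and 4) and measured on 2-colour Agilent mouse expression arrays, 4 arrays on 1 slide. An array held both dyes but a single diet: mice 1 and 2 of a diet shared its array A, and mice 3 and 4 its array B. The comparison asks how dietary salt relates to expression in the heart, here for 1 enzyme complex.

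Complex I, or NADH:ubiquinone oxidoreductase, is the entry point of most electrons into the mitochondrial respiratory chain. Its matrix arm oxidises NADH in the N module and hands the electrons through iron-sulfur clusters to ubiquinone in the Q module, and its membrane arm pumps protons that drive ATP synthesis. The core of the membrane arm is encoded by mitochondrial DNA, while every Nduf gene lies in the nucleus, and the heart, which lives on oxidative metabolism, is rich in the complex. Assembly factors help to build the modules and are not part of the finished enzyme.

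Values below are log2 intensities after normalisation, and a difference is low salt minus normal salt on that scale. Spots had a median intensity of 116 to 147 per mouse against a median background of 15.5 to 33.5, and 53.0% to 66.3% of spots were well above background. All 12 cardiomyocyte markers were well above background, and their mean level was 16.86 to 17.49 on normal salt and 16.80 to 17.42 on low salt. The 8 measured atrial markers of 9 averaged 10.25 to 12.08 on normal salt and 9.94 to 11.27 on low salt, and all 8 were well above background. The 12 endothelial markers averaged 11.56 to 11.95 against 11.26 to 11.55, and the 6 nerve and Schwann markers 8.71 to 8.75 against 8.40 to 8.57, with no overlap of the diets in either list. The part of these shifts in the complex I values was not tested. In whole ventricle RNA, fewer cells of a type and less RNA per cell cannot be told apart.

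Most complex I genes differed little between the diets, as did most genes of the array. Among the 38 subunit genes 17 were higher and 21 lower on low salt, with a median difference of -0.01 and a range from -0.53 to 0.63. The median over all 18250 genes was 0.01. Among the 7 assembly factors 5 were higher and 2 lower, with a median of 0.12 and a range from -0.18 to 0.55. None of the 45 genes passed the threshold, an adjusted p of 0.05 in limma with Benjamini-Hochberg adjustment over all genes, and the smallest adjusted p among them was 0.123. Over all genes 0.789% passed. At an unadjusted p under 0.05, 5 of the 45 were higher (4 subunits and 1 assembly factor), where 6.78% of all genes were higher, and 0 were lower, where 4.26% were lower. The 95% confidence interval of the difference lay within 1.5-fold in either direction for 36 of the 45 genes (30 subunits and 6 assembly factors). Intervals were not counted in this way over all genes. A difference of at most 0.2 in either direction was seen for 35 of the 45 genes (77.8%) and for 66.8% of all genes.

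**Figure D1:**
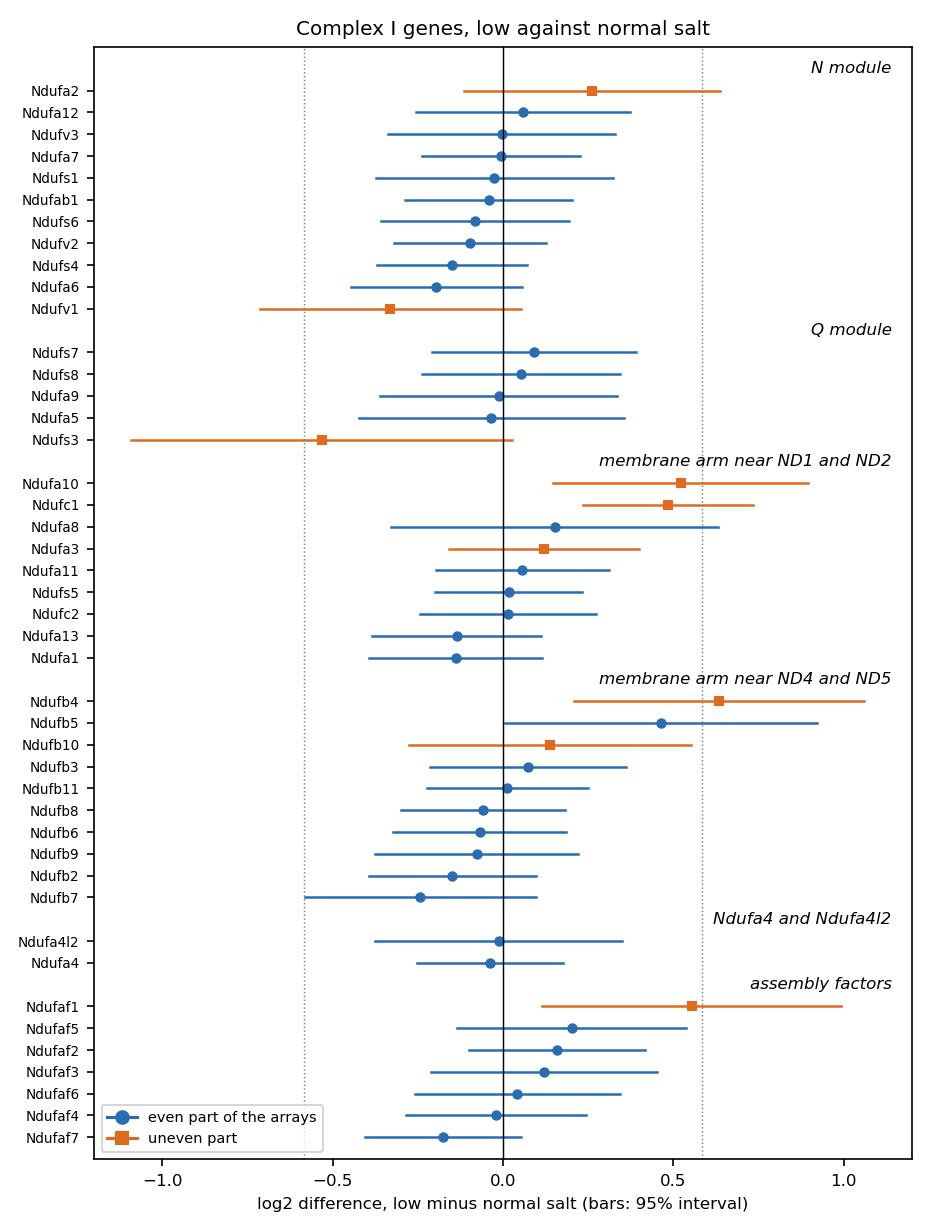
The plot shows the log2 difference (low minus normal salt) of 44 of the 45 genes with its 95% interval, grouped by module, with dotted lines at 1.5-fold; squares mark genes whose probe lay in an uneven part of the arrays. Most genes sit close to 0, and the intervals of 35 of them stay between the dotted lines.

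The subunit genes varied little between mice. The median within-group SD was 0.13 for subunits and 0.12 for assembly factors, against 0.15 over all genes. Each mouse's median deviation over the 38 subunits from the mean of all mice was -0.02, 0.04, -0.02 and 0.02 in normal salt mice 1 to 4 and 0.03, 0.07, -0.04 and -0.06 in low salt mice 1 to 4. The diets thus overlapped, and the highest and the lowest mouse were both on low salt. Over the 7 assembly factors the same medians were 0.00, -0.15, -0.08 and 0.08 on normal salt and 0.22, 0.09, 0.09 and -0.13 on low salt, again with overlap. The 5 gaps in the member values (2 mice for Ndufa5, 1 for Ndufb3 and 2 for Ndufa9) are spots flagged as outliers by the scanner software, and these genes were fitted on the other mice.

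The place of a probe on the arrays moved with these differences. For each probe a local difference was computed from the surrounding spots (7 rows and columns on each side), and a place was called even where this local difference was at most 0.1. Of the 45 genes 9 lay in uneven places, 8 subunits and 1 assembly factor, and the median of their absolute differences was 0.48. The other 36 had a median absolute difference of 0.07. Of the 7 genes over 0.3 in either direction 6 lay in uneven places, the exception being Ndufb5. Across the 58 kept probes the difference and the local difference correlated with r = 0.74 (Spearman's rho = 0.55), and across the 46 probes in even places with r = 0.17. These are descriptions over probes, which share mice and arrays and are not independent replicates. After the local trend had been subtracted in each mouse, 3 of the 45 genes differed by over 0.3, namely Ndufb4, Ndufaf1 and Ndufb5. In that fit 0 members passed the adjusted threshold, where 0.252% of all genes did, and 4 had an unadjusted p under 0.05 (Ndufb4, Ndufb5, Ndufa6 and Ndufaf1), where 14.8% of all genes had one. The groups did not overlap for 4 of the 45, where this held for 12.9% of all genes.

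**Figure D2:**
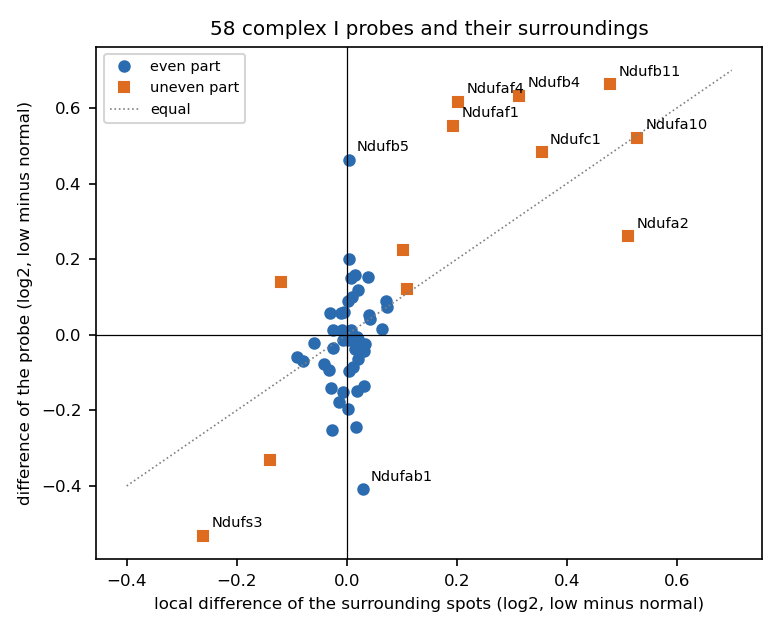
The plot sets the log2 difference of each of the 58 kept complex I probes (vertical axis) against the local difference of the spots around it (horizontal axis), both low minus normal salt, with squares for the 12 probes in uneven places. Of these 12 probes 11 had the sign of their surroundings, while the 46 probes in even places cluster near 0 on both axes.

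The N module holds the NADH-binding end of the enzyme. Its 11 genes had a median difference of -0.04, with 2 higher and 9 lower, and 0 had an unadjusted p under 0.05. Ndufv1 encodes the flavoprotein that binds NADH and FMN. Its log2 intensity was 16.83, 17.15, 17.04 and 17.25 in normal salt mice 1 to 4 and 16.26, 16.69, 16.86 and 17.14 in low salt mice 1 to 4. The diets overlapped, and both low values came from low salt array A. The difference was -0.33 ± 0.17 (SE; limma adjusted p = 0.50). Leaving out low salt array B gave -0.59 (adjusted p = 0.0439), past the threshold, and leaving out low salt array A gave -0.07 (adjusted p = 0.849). The surrounding spots differed by -0.14.

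Ndufv2 and Ndufs1, which are both iron-sulfur proteins, differed by -0.10 ± 0.10 (SE) and -0.03 ± 0.15 (SE). Ndufv2 stood at 16.39 ± 0.11 (SD, n = 4) on normal salt and 16.29 ± 0.13 (n = 4) on low salt. Ndufs1 stood at 16.07 ± 0.12 and 16.05 ± 0.14 (SD, n = 4 each). Both thus differed by no more than the SD between mice.

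Ndufa6, an accessory subunit of the matrix arm, was 15.24, 15.12, 15.32 and 15.08 on normal salt and 15.07, 15.07, 14.95 and 14.88 on low salt. The diets did not overlap, the nearest mice being at 15.08 and 15.07. The difference was -0.20 ± 0.11 (SE; limma adjusted p = 0.537), and its place on the arrays was even. Ndufs4, an accessory subunit whose loss causes Leigh syndrome, was 15.11, 15.12, 15.15 and 15.15 on normal salt and 14.91, 15.08, 14.96 and 14.97 on low salt, also without overlap. Its difference was -0.15 ± 0.10 (SE; adjusted p = 0.578). Ndufs4 was singled out after its values were seen. Of the other N module genes, Ndufa2 differed by 0.26, where the surrounding spots differed by 0.51, and with the local trend subtracted its difference was -0.25. The other 5 genes of the module (Ndufa7, Ndufa12, Ndufab1, Ndufs6 and Ndufv3) differed by -0.08 to 0.06.

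The Q module passes electrons to ubiquinone. Of its 6 genes 3 were higher and 3 lower, with a median of 0.02. Ndufs7 and Ndufs8, which carry the last clusters before the quinone site, differed by 0.09 ± 0.13 and 0.05 ± 0.13 (SE). For both genes the diets overlapped. The accessory subunits Ndufa5 and Ndufa9 differed by -0.03 and -0.01, each fitted on 6 mice.

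Ndufs3, a core subunit that is assembled early into the Q module, had the largest negative difference of all 45 genes. It was 16.19, 16.30, 16.16 and 16.18 on normal salt and 15.30, 15.15, 16.14 and 16.11 on low salt. The diets did not overlap, yet low salt mice 3 and 4 lay within 0.1 of normal salt, and the distance came from both mice of low salt array A. The difference was -0.53 ± 0.24 (SE; limma adjusted p = 0.473). Leaving out low salt array B gave -0.98 (adjusted p = 0.0153), past the threshold, and leaving out array A of that diet gave -0.08 (adjusted p = 0.784). The surrounding spots differed by -0.26, and the difference was -0.27 with the local trend subtracted.

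**Figure D3:**
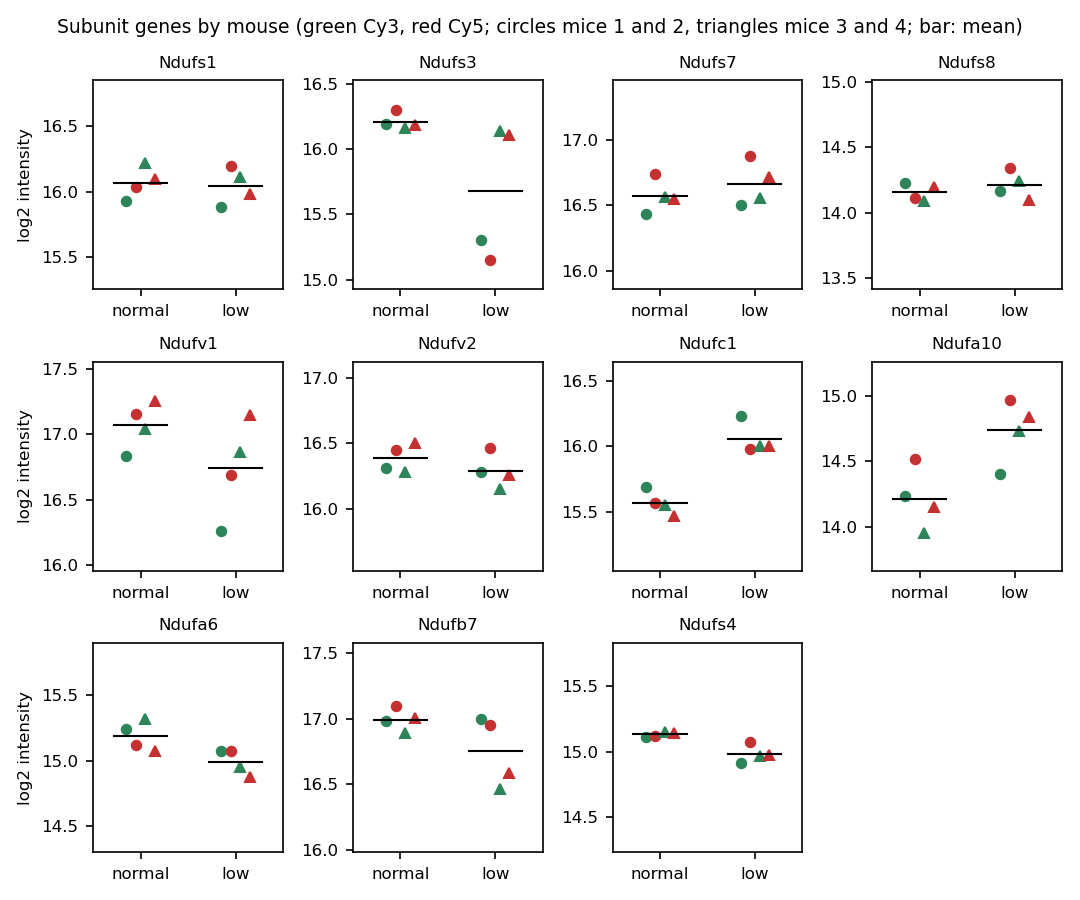
The plot shows the log2 intensity of 11 subunit genes in each mouse, with normal salt on the left and low salt on the right of each panel, a bar at the group mean, green for Cy3, red for Cy5, circles for mice 1 and 2 and triangles for mice 3 and 4. For Ndufs3 both low salt circles lie far below the other 6 mice, while for Ndufc1 all 4 low salt mice lie above all 4 normal salt mice.

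In the membrane arm near the mitochondrially encoded ND1 and ND2, 7 of 9 genes were higher, with a median of 0.06. Ndufc1, a small accessory subunit of the membrane arm, had the smallest adjusted p of the complex. It was 15.69, 15.57, 15.55 and 15.47 on normal salt and 16.23, 15.98, 16.01 and 16.00 on low salt. There was no overlap, and low salt mouse 1 stood above the other 3 mice of its diet. The signal was 1.40-fold higher, a log2 difference of 0.48 ± 0.11 (SE; limma adjusted p = 0.123). The surrounding spots differed by 0.35, and with the local trend subtracted the difference was 0.13 (adjusted p = 0.539). With low salt array B left out the adjusted p was 0.0439, at a difference of 0.53, and without any other array the difference was 0.42 to 0.54, short of the threshold.

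Ndufa10, an accessory subunit related to nucleoside kinases, was 14.23, 14.52, 13.95 and 14.15 on normal salt and 14.40, 14.97, 14.73 and 14.84 on low salt. Low salt mouse 1 lay below normal salt mouse 2, so the diets overlapped. The difference was 0.52 ± 0.16 (SE; limma adjusted p = 0.288). The surrounding spots differed by 0.53, and with the local trend subtracted the difference was -0.01. The other 7 genes, Ndufa1, Ndufa3, Ndufa8, Ndufa11, Ndufa13, Ndufc2 and Ndufs5, differed by -0.14 to 0.15.

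In the membrane arm near ND4 and ND5, which is made up of the Ndufb subunits, 5 of 10 genes were higher, with a median of -0.02. Ndufb4, an accessory subunit of the distal arm, had the largest positive difference of the complex. Its brightest probe read 16.20, 15.95, 15.54 and 15.35 on normal salt and 16.55, 16.42, 16.35 and 16.25 on low salt. The diets did not overlap. The signal was 1.55-fold higher, a log2 difference of 0.63 ± 0.19 (SE; limma adjusted p = 0.255). With normal salt array A left out it was 0.95 (adjusted p = 0.0283), past the threshold, and with normal salt array B left out 0.32 (adjusted p = 0.437).

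Ndufb5, another accessory subunit of that arm, was 15.20, 15.58, 15.90 and 16.06 on normal salt and 16.18, 16.24, 16.12 and 16.06 on low salt. The low salt mice were close together, and the normal salt mice spread from well below them up to their level. The difference was 0.46 ± 0.20 (SE; limma adjusted p = 0.451), and the surrounding spots differed by 0.00. With normal salt array A left out it was 0.17 (adjusted p = 0.782), and with normal salt array B left out 0.76 (adjusted p = 0.129). Ndufb7, an accessory subunit on the outer face of the inner membrane, was 16.98, 17.10, 16.89 and 17.00 on normal salt and 17.00, 16.95, 16.46 and 16.58 on low salt. Both mice of low salt array B lay below the rest. Its difference was -0.24 ± 0.15 (SE; adjusted p = 0.562), and with that array left out -0.02. Without low salt array A it was -0.47 (adjusted p = 0.142). The other 7 genes of the group (Ndufb2, Ndufb3, Ndufb6, Ndufb8, Ndufb9, Ndufb10 and Ndufb11) differed by -0.15 to 0.14.

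Ndufa4 and Ndufa4l2 carry complex I names although Ndufa4 is now counted with cytochrome c oxidase, and Ndufa4l2 is known as a target of hypoxia signalling. Ndufa4 was 16.06, 16.21, 16.25 and 16.31 on normal salt and 16.12, 16.26, 16.09 and 16.22 on low salt, a difference of -0.04 ± 0.09 (SE). Ndufa4l2 was 11.53, 11.27, 11.35 and 11.33 against 11.66, 11.33, 11.17 and 11.27, a difference of -0.01 ± 0.16 (SE). The diets overlapped for both genes.

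The 7 assembly factors were read one by one. Ndufaf1 works early in the building of the membrane arm, in a complex with Ecsit and Acad9. It was 11.21, 11.21, 11.57 and 11.84 on normal salt and 12.15, 11.93, 12.03 and 11.94 on low salt. The diets did not overlap, although normal salt mouse 4 came within 0.1 of the lowest low salt mouse. The signal was 1.47-fold higher, a log2 difference of 0.55 ± 0.19 (SE; limma adjusted p = 0.343). The surrounding spots differed by 0.19, and with the local trend subtracted the difference was 0.36 (adjusted p = 0.313). Normal salt array A left out, it was 0.31 (adjusted p = 0.70), and with normal salt array B left out 0.80 (adjusted p = 0.0527).

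Ndufaf7, a methyltransferase needed for assembly, was 11.71, 11.65, 11.72 and 11.66 on normal salt and 11.47, 11.55, 11.58 and 11.44 on low salt. Again the diets did not overlap, and the place was even. The difference was -0.18 ± 0.10 (SE; limma adjusted p = 0.540). Without any 1 array it stayed between -0.17 and -0.18. Ndufaf2, a late-acting factor, differed by 0.16 ± 0.11 (SE), Ndufaf3 by 0.12 ± 0.14 and Ndufaf5, which hydroxylates Ndufs7, by 0.20 ± 0.15. Ndufaf4, a partner of Ndufaf3, differed by -0.02 ± 0.12 and Ndufaf6 by 0.04 ± 0.13 (SE). For these 5 genes the diets overlapped, and their adjusted p in limma lay between 0.615 and 0.955.

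**Figure D4:**
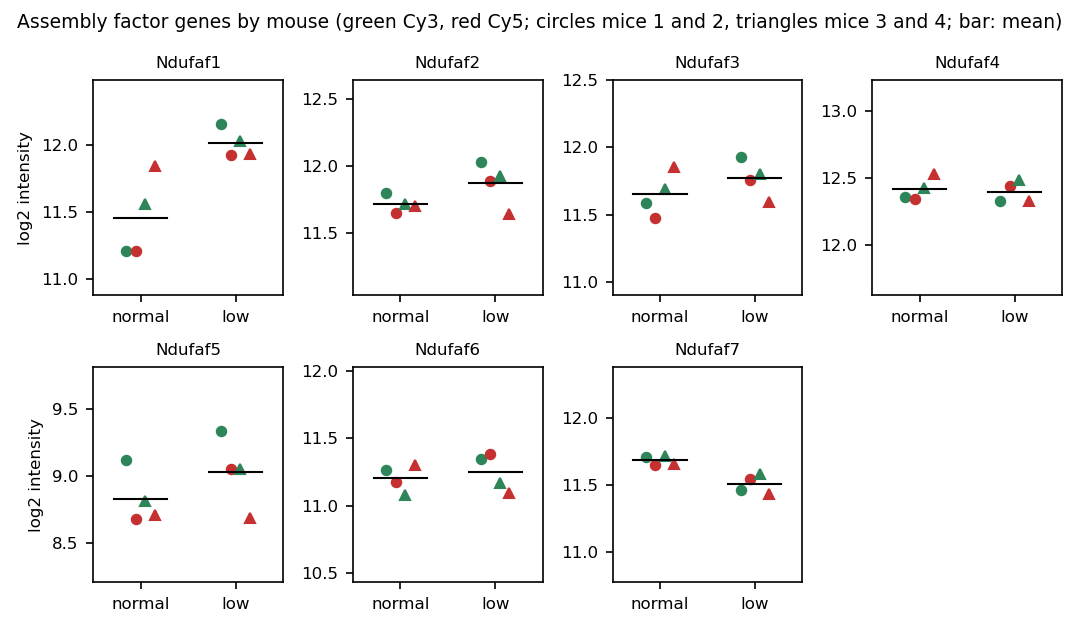
The plot shows the log2 intensity of the 7 assembly factor genes in each mouse, with normal salt on the left and low salt on the right of each panel, a bar at the group mean, green for Cy3, red for Cy5, circles for mice 1 and 2 and triangles for mice 3 and 4. The diets are apart for Ndufaf1 (higher on low salt) and Ndufaf7 (lower), and overlap for the other 5.

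In all, the diets did not overlap for 3 of the 45 genes with low salt higher (Ndufb4, Ndufc1 and Ndufaf1) and for 4 with low salt lower (Ndufs3, Ndufa6, Ndufs4 and Ndufaf7). Over all genes the shares were 7.97% higher and 4.95% lower. The 3 higher genes and Ndufs3 lay in uneven places, and the other 3 lower genes in even ones. The series' own design compares mice of the same dye and averages the results of both dyes. Read that way, 17 of the 45 genes were higher in both dyes, 15 lower in both and 13 of opposite sign. These counts by sign were not made over all genes. No member was at least 1.5-fold higher in both dyes, where 1.97% of all genes were, and none was at least 1.5-fold lower in both, where 1.34% were.

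For 11 of the 45 genes more than 1 probe was kept, which gives a second reading of the gene at another place on the arrays. Some of these probes are listed in the array design under different transcripts of the gene, and such a pair need not read the same one. The probes of 6 genes differed in sign, and those of 5 were over 0.3 apart. Fitted probe by probe, 0 of the 58 probes passed the adjusted threshold, where 0.813% of all 23236 kept probes did, and 7 had an unadjusted p under 0.05, where 11.1% of all probes had one. Of these 7 probes 6 lay in uneven places, where 12 of all 58 lay. In the first 14 columns of the array lay 6 of the 7, and 14 of all 58. The probe sequences of 4 genes are shown because their probes gave unlike differences. Each is given 5′ to 3′ as on the array, named by its row on the array, and capitals mark a stretch that both probes of a pair share.

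Ndufb4 has a pair of probes on chromosome 16 (mm9, minus strand), at 37647711 to 37647770 (row 276, column 9) and at 37647688 to 37647747 (row 370, column 78), which share 37 of their 60 bases.
Ndufb4 row 276: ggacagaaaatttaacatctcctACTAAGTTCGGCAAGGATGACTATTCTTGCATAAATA
Ndufb4 row 370: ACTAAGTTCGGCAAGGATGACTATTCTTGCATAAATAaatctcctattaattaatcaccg
The probe at row 276 is the brighter one with the difference of 0.63 given above. The probe at row 370 read 15.77, 15.52, 15.61 and 15.44 on normal salt and 15.75, 15.62, 15.62 and 15.41 on low salt, with full overlap and a difference of 0.01 ± 0.10 (SE; limma adjusted p over probes 0.972). The spots around row 276 differed by 0.31, and those around row 370 by 0.01.

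Ndufb11, an accessory subunit of the distal membrane arm, has 3 kept probes. The array design places those at rows 71 and 166 on chromosome X (mm9, minus strand), at 20192453 to 20192512 and at 20194630 to 20194689. It gives the probe at row 117, which ends in a run of a, a place on chromosome 5 (123516746 to 123516805, plus strand), although this probe shares 55 bases with the one at row 71.
Ndufb11 row 71: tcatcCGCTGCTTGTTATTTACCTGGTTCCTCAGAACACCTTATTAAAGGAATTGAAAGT
Ndufb11 row 117: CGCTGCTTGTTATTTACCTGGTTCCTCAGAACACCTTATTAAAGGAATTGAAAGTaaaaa
Ndufb11 row 166: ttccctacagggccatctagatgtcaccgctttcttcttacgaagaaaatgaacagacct
Both probes with the shared stretch differed by 0.01 ± 0.10 and 0.01 ± 0.11 (SE), at means of 16.59 and 16.56 on normal salt. The probe at row 166 was far dimmer. It read 7.55, 7.22, 7.58 and 7.43 on normal salt and 8.22, 8.21, 8.10 and 7.90 on low salt, with no overlap. Its difference was 0.66 ± 0.13 (SE; limma adjusted p over probes 0.0634), where the surrounding spots differed by 0.48, and with the local trend subtracted it was 0.18.

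Ndufaf4 has a probe at 24829194 to 24829253 (row 483) and another at 24830284 to 24830343 (row 287) of chromosome 4 (mm9, plus strand), with no shared stretch of 15 bases or more.
Ndufaf4 row 483: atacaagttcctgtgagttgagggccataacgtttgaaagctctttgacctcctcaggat
Ndufaf4 row 287: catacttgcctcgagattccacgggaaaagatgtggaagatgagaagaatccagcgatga
The probe at row 483 is the brighter one, with the difference of -0.02 given above. The probe at row 287 read 11.42, 11.41, 11.23 and 11.21 on normal salt and 11.88, 11.86, 12.11 and 11.90 on low salt, with no overlap. Its difference was 0.62 ± 0.12 (SE; limma adjusted p over probes 0.0588), the smallest adjusted p of the 58 probes. The spots around it differed by 0.20, and with the local trend subtracted the difference was 0.41.

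Ndufb5 has probes at 32650097 to 32650156 (row 239) and at 32650236 to 32650295 (row 397) of chromosome 3 (mm9, plus strand), likewise with no shared stretch.
Ndufb5 row 239: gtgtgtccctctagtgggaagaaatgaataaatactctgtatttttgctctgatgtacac
Ndufb5 row 397: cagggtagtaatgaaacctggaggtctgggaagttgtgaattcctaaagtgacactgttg
Both lay in even places. The probe at row 239 is the brighter one with the difference of 0.46. The probe at row 397 read 12.67, 12.72, 12.86 and 13.10 on normal salt and 12.91, 12.84, 12.86 and 12.70 on low salt, a difference of -0.01 ± 0.15 (SE) with overlap of the diets. Ndufab1, the mitochondrial acyl carrier protein, was singled out after its values were seen, and its probes are listed under different transcripts. Its brighter probe differed by -0.04 ± 0.11 and its dimmer probe by -0.41 ± 0.21 (SE), both in even places with overlap of the diets. Their means on normal salt were 16.88 and 9.45. With the local trend subtracted the dimmer probe differed by -0.44 (limma adjusted p over probes 0.133), and the diets did not overlap.

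**Figure D5:**
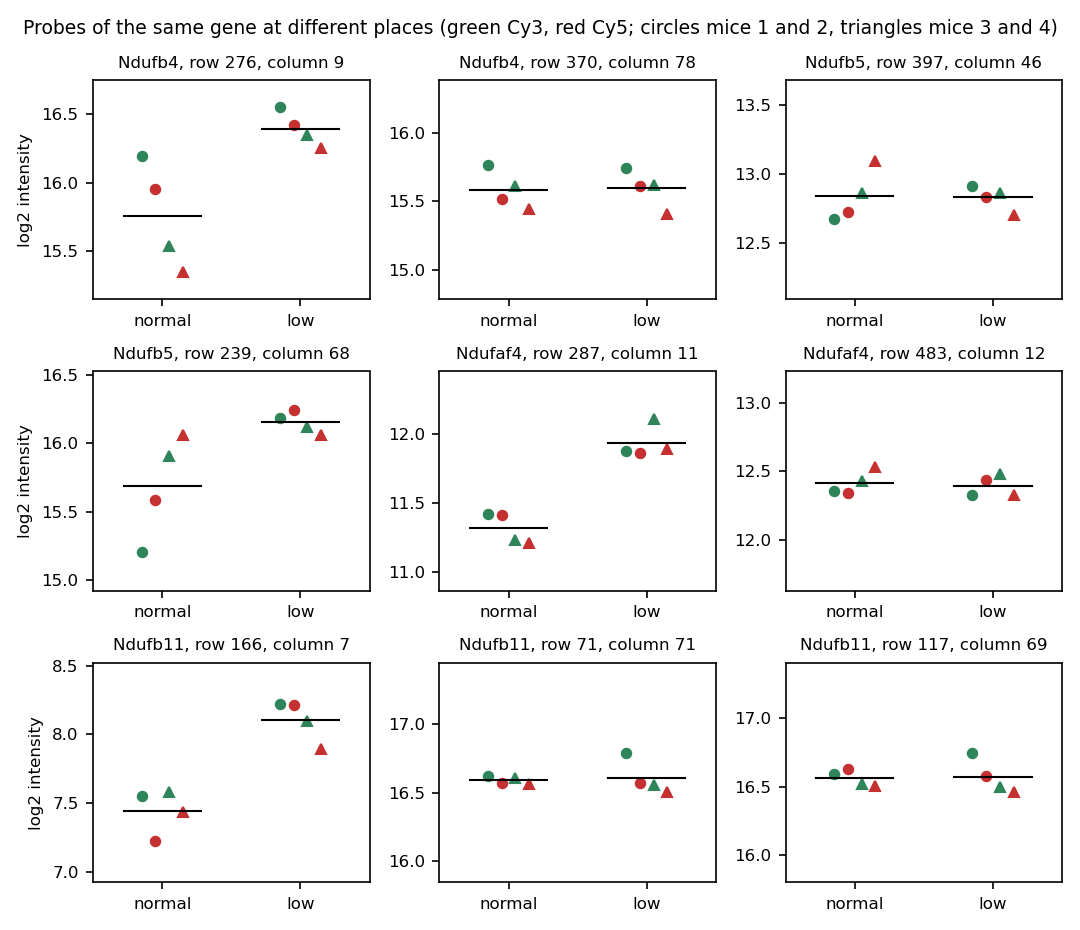
The plot shows the log2 intensity in each mouse of the 9 kept probes of Ndufb4, Ndufb5, Ndufaf4 and Ndufb11, each panel headed by gene, row and column on the array, with bars at the group means, green for Cy3, red for Cy5, circles for mice 1 and 2 and triangles for mice 3 and 4. In each gene 1 probe is higher on low salt, by 0.46 to 0.66, while the others differ by at most 0.02.

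The genes that work with the Nduf genes gave no calls either. Of 82 listed genes of the respiratory chain and its regulators 81 were measured, 43 higher and 38 lower, with a median of 0.01, and 0 passed the adjusted threshold in limma. At an unadjusted p under 0.05, 5 were higher and 1 lower, beside the 6.78% and 4.26% of all genes given above. The 7 mitochondrially encoded complex I subunits, mt-Nd1 to mt-Nd6 and mt-Nd4l, differed by -0.15 to 0.13, and all 7 overlapped between the diets. By smallest p, mt-Nd4l differed by -0.15 and mt-Nd3 by 0.09. Of 11 measured assembly genes without an Nduf name 8 were higher. Timmdc1, which works on the membrane arm, differed by 0.33 ± 0.14 (SE; limma adjusted p = 0.437) in an even place, with no overlap of the diets. Ecsit, a partner of Ndufaf1, differed by -0.42 ± 0.20 (SE; adjusted p = 0.480) where the surrounding spots differed by -0.22. Leaving out low salt array B gave -0.74 for Ecsit (adjusted p = 0.0498), and leaving out low salt array A gave -0.11 (adjusted p = 0.822).

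In complexes II to V no gene passed. Complex II had 3 of 7 genes higher (median -0.05), complex III 3 of 10 (median -0.05), complex IV 8 of 14 (median 0.01) and complex V 6 of 15 (median -0.07). By smallest p in each list, Sdhaf2 differed by -0.51 and Sdhb by -0.14 in complex II, and Uqcrb by 0.30 and Uqcr10 by -0.62 in complex III. In complex IV Cox5a differed by 0.33 and Cox8b by -0.32, and in complex V Atp5e by -0.29 and Atp5c1 by 0.27. Of these 8 genes only Uqcr10 lay in an even place. With the local trend subtracted, Uqcrb turned to -0.15, and the differences were -0.25 for Sdhaf2, -0.03 for Sdhb, 0.06 for Cox5a, -0.11 for Cox8b, -0.02 for Atp5e and 0.12 for Atp5c1. Uqcr10 rested on low salt array B, without which it differed by -0.11, and Sdhaf2 on low salt array A, without which it differed by -0.01. Of the regulators Esrrg differed by 0.25 and Gabpa by -0.25, with 8 of 12 higher. Nnt, listed with the NADH shuttles and other quinone reductases, had the largest difference of these lists. This is a difference in probe signal, and no protein or enzyme activity was measured. The signal of Nnt was 12.90, 12.91, 13.73 and 13.47 on normal salt and 14.20, 14.28, 14.21 and 14.19 on low salt, with no overlap. Its difference was 0.96 ± 0.21 (SE; limma adjusted p = 0.107), the surrounding spots differed by 0.35, and with the local trend subtracted it was 0.61. Leaving out normal salt array B gave 1.31 for Nnt (adjusted p = 0.00845), past the threshold, and leaving out normal salt array A gave 0.62 (adjusted p = 0.152). Dhodh, which was next by p in that list, differed by -0.13.

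Short letter patterns of factors known to act on mitochondrial genes were searched on both strands of the RefSeq promoters (GRCm38.p6, 250 bases before to 50 after each gene's start), which were held for 33 of the 38 subunit genes and 6 of the 7 assembly factors. The Nrf1 pattern GCGCANGCG was in 8 of the 33 subunit promoters (24.2%) and 2 of the 6 assembly factor promoters, against 7.03% of the promoters of 27025 genes. Yy1's pattern AAGATGGCG was in 5 of 33 (15.2%) and 0 of 6, against 1.64%. The Gabpa pattern CCGGAAG was in 4 of 33 (12.1%) and 1 of 6, against 9.93%, and the Esrra pattern TCAAGGTCA in 0 of 33 and 0 of 6, against 0.466%. Of the members that stood apart between the diets, Ndufb4 and Ndufa6 held the Nrf1 pattern, Ndufc1 and Ndufs4 that of Yy1, and Ndufs3 and Ndufaf1 that of Gabpa. Ndufaf7, also apart, was not among the genes found with a pattern. More members whose diets overlapped held the patterns than members that stood apart. For Nrf1 the overlapping ones were Ndufa5, Ndufa8, Ndufa11, Ndufb10, Ndufs5, Ndufs6, Ndufaf4 and Ndufaf5. For Yy1 they were Ndufa9, Ndufs6 and Ndufs7, and for Gabpa Ndufb6, Ndufb7 and Ndufs8. Whether a pattern bears on the differences was not tested. Longer forms of the Nrf1 and Yy1 patterns had been searched first: the Nrf1 pattern with a further C at its 3′ end was in 7 of the 33 subunit promoters, against 5.19% of all, and Yy1's with a further GC in 4 of 33, against 0.755%, and Ndufc1 did not hold the longer Yy1 form. A match describes the letters in this window and is not a measured site, and the patterns were chosen with the values known.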

How the data were processed

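RNA of 8 left ventricles (4 mice on each diet) was measured on 4 arrays. The deposited intensity values (spot signal and local background) are as read by Agilent Feature Extraction 11.5.1.1, per the file headers. Probe places are the array design's own, on mm9, with no exon given.

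Mean signal was corrected with normexp (offset 50, with the channel's median where the local background was flagged), then loess within and Aquantile between arrays, and taken as log2 per channel (limma 3.58.1, statmod 1.5.0, R 4.3.3). Control and flagged spots were left out. Probes well above background in at least 4 mice were kept, and a gene was read from its brightest probe. The model held diet and dye, with array as a random block (correlation 0.565), 2-sided and adjusted over all genes. The mice are separate animals, and the number of arrays limits the precision. The fit was tested on simulated data for this comparison (18250 genes, 200 of them changed). There it recovered 78% of changes of 1 log2 unit and 96% of those of 2, and 6.45% of its calls were false. Recovery of smaller changes was not tested, and the largest difference among the 45 genes was 0.63. In the measured data 134 of the 144 genes past the adjusted threshold lay in uneven places, where 26.0% of all genes lay. The share of false calls among these 144 was not tested. Columns of other series that were not used numbered 0. Promoter windows and gene names come from RefSeq (GRCm38.p6).

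The members and lists were chosen with earlier results of these data known. Named are all assembly factors, the 7 nuclear core subunits, the 4 largest rises and falls, members with an unadjusted p under 0.05, genes whose probes disagree, Ndufa4 and Ndufa4l2, and the 2 genes of smallest p in each other list. The values of 1 core subunit gene are not reported here; it is in the counts and medians. Alternatives changed the background correction, normalisation, filter, probe choice, block, dye, mice, arrays and local trend.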

Additional observations from a re-analysis of the deposited data

Results flagged for a closer look

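Dixon's ratio was computed in the 87 groups of 4 mice with no missing value, and 3 groups passed its 95% critical value; chance alone passes about 1 in 20 groups. Ndufa13, an accessory subunit of the membrane arm, stood at 17.39 in low salt mouse 3, below the other low salt mice at 17.55 to 17.58. Ndufc1 stood at 16.23 in low salt mouse 1, above the others of its diet at 15.98 to 16.01. Ndufa12, an accessory subunit of the N module, stood at 16.06 in normal salt mouse 2, below the others of its diet at 16.15 to 16.17.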

How the results depend on the processing

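The number of complex I genes past the adjusted threshold in limma was 0 under 25 of 28 alternatives for the subunits and under all 28 for the assembly factors, and 0 without any 1 mouse. It was 1 with no array block (Ndufc1, adjusted p = 0.0180) and 1 without normal salt array A (Ndufb4). Without low salt array B it was 3 (Ndufs3, Ndufc1 and Ndufv1), when 1080 of 18225 genes passed against 144 of 18250, and the median over all genes was 0.04. The other respiratory chain genes gave 1 call with no array block (Nnt) and 1 without normal salt array B (Nnt). They gave 4 without low salt array B, namely Sdhaf2, Atp5a1, Tfam and Ecsit. The median subunit difference kept its sign in 21 of 27 alternatives, at -0.03 to 0.02 without any 1 mouse, 0.044 with no normalisation between arrays and 0.0699 without low salt array B. The assembly factor median lay at 0.01 to 0.22 in 27 alternatives and at 0.07 to 0.19 without any 1 mouse. Subunits whose diets did not overlap numbered 5 to 7 of 38 without any 1 mouse, where 15.4% to 20.1% of all genes were apart. With the scanner's processed signal they numbered 3, and with median centring within arrays 0, where 13.9% and 5.69% of all genes were apart. On even places 2 of 30 subunits were apart, beside 9.59% of all genes. With Cy3 or with Cy5 mice alone they numbered 14, beside 45.2% and 38.3% of all genes. Without normal salt array A, normal salt array B, low salt array A and low salt array B they numbered 9, 11, 13 and 12, where 27.5%, 30.9%, 25.5% and 38.7% of all genes were apart; fewer mice leave less chance of overlap. Otherwise the cause was not tested.

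Counts over all genes moved more: 627 passed with no array block, 36 with the scanner's processed signal, 46 with the local trend subtracted, 2 of 13506 on even places, and 0 with no normalisation between arrays, with arrays averaged or within 1 dye, where 782, 1555, 1860 (Cy3) and 1263 (Cy5) genes had an unadjusted p under 0.05. Without any 1 mouse 52 to 109 passed. Same-numbered mice share their dye; their deviations correlated at 0.141 to 0.288 with group means removed and at -0.01 to 0.134 with dye removed as well, and 0 of 8 correlated best with their own number, so they were not taken as pairs. With the mouse number as a replicate block, 0 subunits and 0 assembly factors passed, the medians were -0.01 and 0.12, and 233 genes passed. In that setting 5 of 38 subunits had diets apart, beside 12.9% of all genes. A gene's brightest probe decides some values, as for Ndufb4, Ndufb5 and Ndufaf4.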

Other observations

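A pair of genes that belong to complex I by their present symbols lay outside the rule because the array names them otherwise; they were added after their values were seen. Ndufaf8, an assembly factor that works with Ndufaf5, is named 1810043H04Rik on the array. It was 9.11, 9.19, 9.62 and 9.75 in normal salt mice 1 to 4 and 10.30, 10.26, 10.31 and 10.44 in low salt mice 1 to 4. The diets did not overlap, and both mice of normal salt array A were the lowest. The signal was 1.88-fold higher, a log2 difference of 0.91 ± 0.16 (SE; limma adjusted p = 0.0560), which is larger than that of any of the 45 members. The surrounding spots differed by 0.12, and with the local trend subtracted the difference was 0.79 (adjusted p = 0.0398). Its adjusted p lay between 0.0150 and 0.621 over 27 alternatives, and 6 of them passed the threshold, among them the fit blocked on mouse number (adjusted p = 0.0289). Leaving out normal salt array A gave 0.64 (adjusted p = 0.0889), and leaving out normal salt array B gave 1.18 (adjusted p = 0.0150). Ndufa11b, named Gm4943 on the array, differed by 0.18 (adjusted p = 0.727), with overlap of the diets.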
